A study of Sus scrofa with 8 samples.

Results

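The enzymes described here are 10 cytochrome P450 genes that pigs use to break down drugs and other foreign compounds, CYP1A1, CYP1A2, CYP2B22, CYP2C33, CYP2C42, CYP2C49, CYP2E1, CYP3A29, CYP3A39 and CYP4A24. They were taken by name from the probes whose RefSeq accession carries one of these symbols, and are 10 of the 3216 genes that could be named on the array. All 10 had at least 1 probe, 27 in all. CYP3A39 is listed in the gene table as a second name of CYP3A46 and was matched through it. Where a gene had several probes, the one with the highest mean signal over all arrays stands for it.

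The RNA came from the middle jejunum of Duroc × Landrace piglets at 25 days of age. In the suckling group 4 piglets stayed with the sow; in the weaned group 4 piglets had been moved to nursery pens at 21 days, 4 days before sampling, and ate a basal diet freely. Litters were not mixed, and each group took 1 piglet from each of 4 litters, but the replicate numbers are not tied to litters. A 2 cm length of gut wall was used, so epithelium, muscle, vessels and immune cells were measured together, with 1 array per piglet. Of 13 marker genes of absorptive enterocytes, 7 had a named probe, and all 7 were well above background on every array.

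A level below is the log2 of the background-subtracted intensity minus the 75th percentile of the same array, so 0 marks that percentile. Levels of different genes come from different probes and are not set against each other. The suckling arrays lay on 1 slide and the weaned arrays on another, each scanned once. Every difference given here is therefore also a difference between slides, and the 2 cannot be told apart. The 75th percentile was 245.0 in suckling replicate 1 and 316.75 to 395.0 in the other 7 arrays, and between 67.6% and 71.0% of probes were well above background. In the scanner software's quality summary every weaned array was rated in range, whereas each of the 4 suckling arrays carried the mark evaluate, so this rating splits exactly as the groups do. Among the P450 genes described here 1 of 8 tested passed a limma adjusted p under 0.05, CYP1A1, and it was higher in the weaned group; 0 passed in the other direction. CYP1A1 entered the test through the weaned arrays alone, so its count is a description. For comparison, 0.177% of the 30554 tested probes passed, 0.173% as higher and 0.00327% as lower in the weaned group.

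The drug-metabolising cytochromes P450 are haem enzymes of the endoplasmic reticulum that insert an oxygen atom into their substrate. Electrons are passed on to them by P450 oxidoreductase, the product of POR. In the small intestine they sit mainly in the enterocytes of the villus, where they oxidise part of what is swallowed before it reaches the liver. Their genes are known to be switched on by sensors of small molecules: the aryl hydrocarbon receptor acts on the CYP1 family, the pregnane X receptor (NR1I2) and the constitutive androstane receptor (NR1I3) on the CYP2B, CYP2C and CYP3A families, and PPARA on the CYP4A family.

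CYP1A1, which oxidises planar aromatic compounds, had a higher signal on the weaned arrays than on the suckling arrays. Its processed intensity was 4.25, 9.05, 3.01 and 7.46 in suckling replicates 1 to 4, and not well above background on any of them. In weaned replicates 1 to 4 it was 128, 71.5, 91.5 and 377, well above background on all. The lowest weaned value was thus above the highest suckling value, and weaned replicate 4 was the highest of its group. On the log2 scale the levels were -5.85, -5.44, -7.04 and -5.51 in suckling and -1.31, -2.44, -2.09 and -0.03 in weaned piglets.

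Mean CYP1A1 was -5.96 ± 0.74 in the suckling group and -1.47 ± 1.07 in the weaned group (SD on the log2 scale, n = 4 each). Since the suckling signal was at background, the fold is given only roughly, against a limit. On each suckling array the limit was the higher of the probe's own level and the lowest level of any probe well above background. That lowest level is not the detection limit of this probe. In suckling replicate 2 it was an intensity of 7.57, yet CYP1A1 at 9.05 was not well above background. The weaned mean was set against the mean of these limits. By this measure the weaned mean was 15.9-fold above the suckling limit. The limma adjusted p of 0.0185 belongs to the log2 difference of the measured levels, 4.49, not to this fold. The second probe of the gene was equally at background on the suckling arrays and above it on the weaned arrays. Its weaned mean was 4.76-fold above its suckling limit. Its limma adjusted p of 0.0296 likewise belongs to the measured log2 difference of 3.93. Both probes entered the test through the weaned arrays alone. Leaving out suckling replicate 2, suckling replicate 3, weaned replicate 1 or weaned replicate 3 ended the call (limma adjusted p = 0.0571, 0.0568, 0.0955 and 0.0513). Normexp background correction also ended the call, leaving a CYP1A1 difference of 0.97 (limma adjusted p = 0.999). With aberrant local backgrounds replaced, normexp left 1.41 (limma adjusted p = 0.163), again short of the threshold. Of the 30554 tested probes, 0 passed by limma after plain normexp and 55 with those backgrounds replaced. Normexp adds an offset that compresses dim signals, and its part in the lost call was not tested.

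CYP1A2, the other CYP1A enzyme and the direct neighbour of CYP1A1 in the gene table, was at background in both groups. Its single probe was not well above background on any of the 8 arrays, with levels from -7.67 to -7.22 in suckling and from -7.57 to -7.39 in weaned piglets. It was therefore not tested. The values give only a bound for either group.

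**Figure D1:**
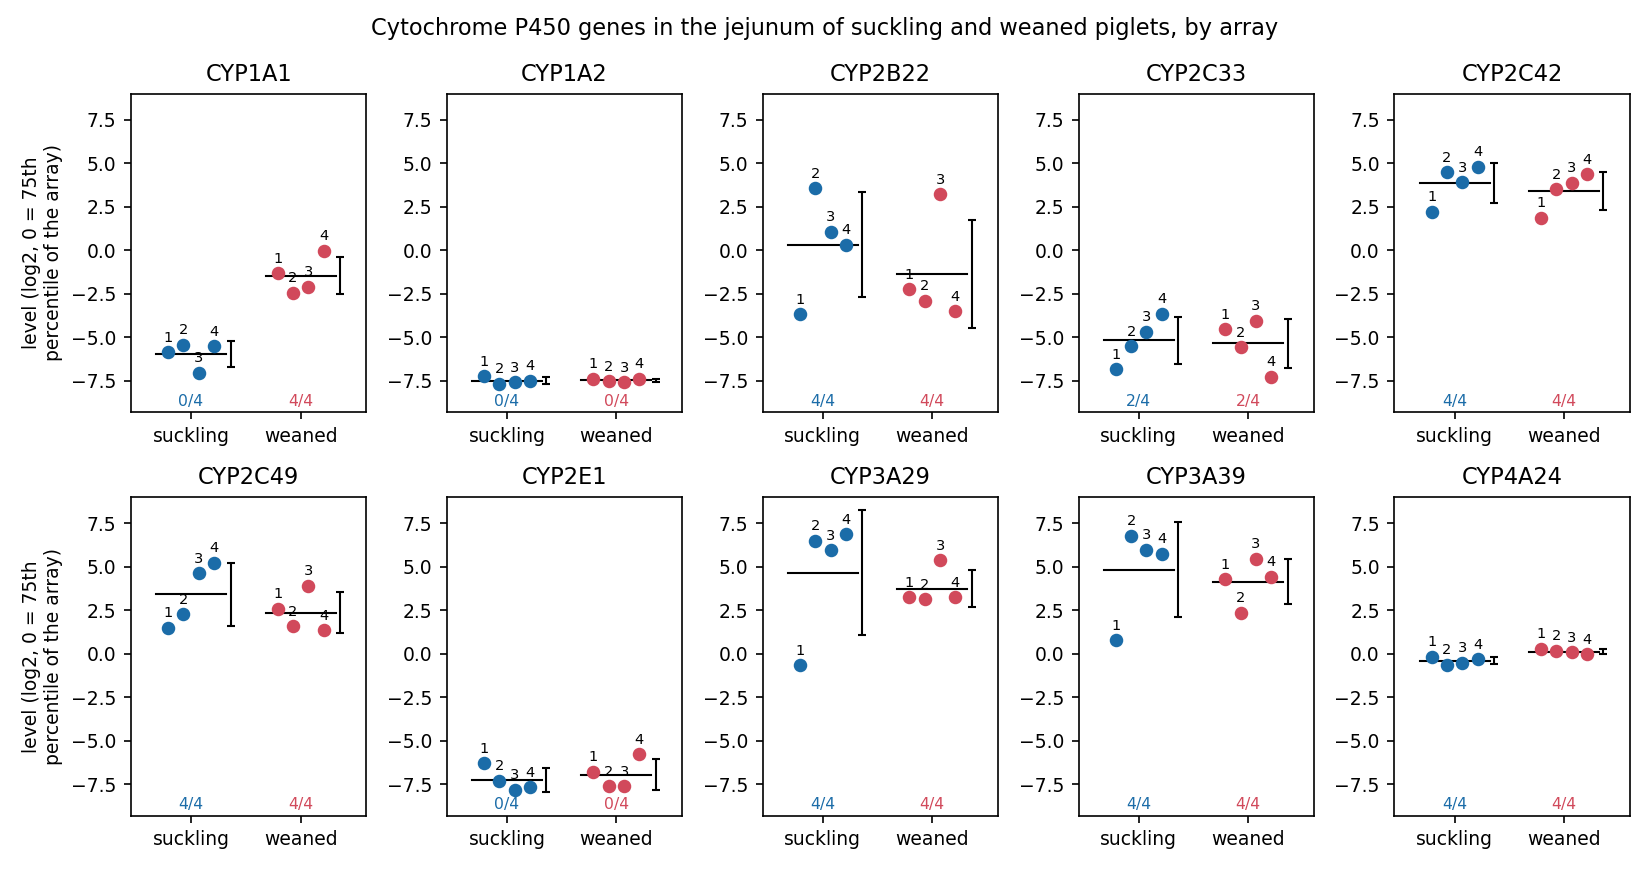
Level of each of the 10 genes on each array (log2, 0 is the 75th percentile of the array), with suckling arrays in blue and weaned arrays in red, numbered by replicate. Horizontal lines are group means, vertical bars the SD (n = 4), and the fraction at the bottom is the number of arrays well above background; CYP1A1 is the gene whose groups lie far apart, while suckling replicate 1 lies low for CYP3A29 and CYP3A39.

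CYP3A29, an oxidase of many drugs and steroids and the pig counterpart of the main drug-metabolising P450 of the human gut, varied more within the suckling group than between the groups. Its level was -0.67 in suckling replicate 1 but 6.50, 5.95 and 6.87 in suckling replicates 2 to 4. In weaned replicates 1 to 4 it was 3.25, 3.12, 5.36 and 3.24. The suckling arrays thus enclosed the weaned arrays, 3 of them above all weaned values and 1 below.

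Within the suckling group CYP3A29 spanned 186-fold, against 4.72-fold within the weaned group. The group means were 4.66 ± 3.57 and 3.74 ± 1.08 (SD on the log2 scale, n = 4 each). Their difference was -0.92 (SE 1.53, 95% interval -4.38 to 2.53, limma adjusted p = 0.842). Without suckling replicate 1 the difference was -2.70 (SE 0.54, limma adjusted p = 0.0531), 6.49-fold lower in weaned piglets, again short of the threshold. With any other single array left out it lay between -1.46 and -0.19.

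CYP3A39, a second enzyme of the same family, followed nearly the same order of arrays. Its level was 0.77 in suckling replicate 1 and 6.79, 5.97 and 5.74 in suckling replicates 2 to 4. In the weaned group it was 4.27, 2.35, 5.46 and 4.41. As for CYP3A29, suckling replicate 1 was the lowest of all 8 arrays and the other suckling arrays were the highest 3.

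The CYP3A39 difference was -0.69 (SE 1.24, 95% interval -3.50 to 2.11, limma adjusted p = 0.856). Without suckling replicate 1 it was -2.04 (SE 0.65, limma adjusted p = 0.126), and 4.11-fold lower in weaned piglets. With any other single array left out it lay between -1.14 and -0.03. All 3 probes of CYP3A29 and all 4 probes of CYP3A39 had their lowest value in suckling replicate 1, and their differences over all 8 arrays ranged from -0.92 to -0.34. The genes are neighbours in the gene table and similar to each other, and whether a probe of one also binds the other's transcript was not tested.

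**Figure D2:**
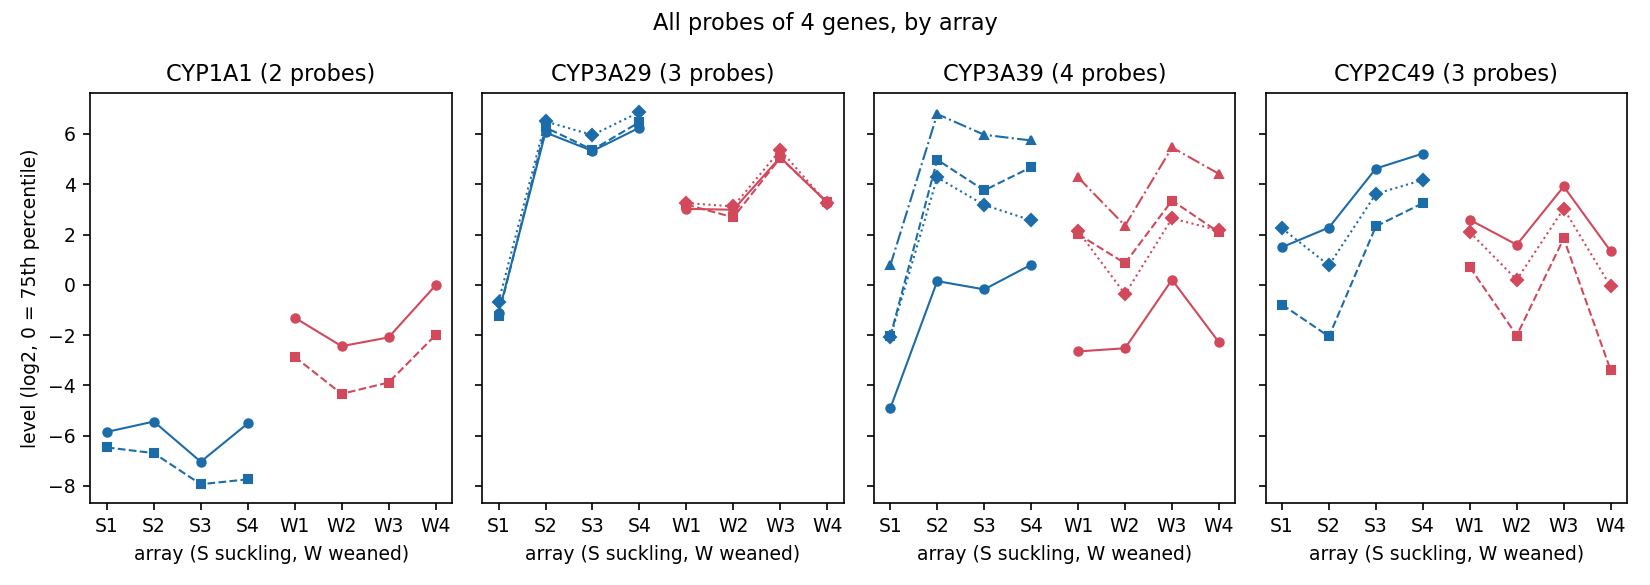
Level of every probe of CYP1A1, CYP3A29, CYP3A39 and CYP2C49 on each array (log2, 0 is the 75th percentile of the array), with each line joining the values of 1 probe within a group. The order of replicates has no meaning. All 7 CYP3A probes are lowest in suckling replicate 1 and both CYP1A1 probes are higher on all weaned arrays, while the CYP2C49 probes differ in whether suckling replicate 1 or 2 is lowest.

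CYP2B22, a phenobarbital-type P450 that oxidises drugs and pesticides, was spread widely within both groups. Its level was -3.68, 3.57, 1.06 and 0.32 in suckling replicates 1 to 4, and -2.25, -2.89, 3.20 and -3.50 in weaned replicates 1 to 4. Suckling replicate 2 and weaned replicate 3 were thus both high, and the groups overlapped over most of their range. The spans were 152-fold in the suckling and 104-fold in the weaned group. The difference was -1.68 (SE 1.76, 95% interval -5.66 to 2.30, limma adjusted p = 0.738). With 1 array left out it was largest without weaned replicate 3, at -3.20, and without suckling replicate 1, at -3.01 (limma adjusted p = 0.407 and 0.297). It was smallest without suckling replicate 2, at -0.60, and without weaned replicate 4, at -0.97.

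The 3 CYP2C genes, oxidases of drugs and unsaturated fatty acids, differed in which arrays were high. CYP2C42 was 2.21, 4.49, 3.92 and 4.79 in the suckling and 1.87, 3.49, 3.87 and 4.36 in the weaned arrays, so that replicate 1 was lowest in both groups. Its difference was -0.45 (SE 0.65, 95% interval -1.93 to 1.03, limma adjusted p = 0.815), and 0.06 without weaned replicate 1.

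CYP2C49 was 1.50, 2.28, 4.62 and 5.22 in the suckling and 2.58, 1.59, 3.91 and 1.34 in the weaned arrays. Here suckling replicates 3 and 4 and weaned replicate 3 were high. Its difference was -1.05 (SE 0.88, 95% interval -3.04 to 0.95, limma adjusted p = 0.667); its other probes gave -1.40 and -1.39, and both of these were lowest of the suckling arrays in replicate 2, not in replicate 1. With 1 array left out the difference ranged from -1.68, without suckling replicate 1, to -0.44, without suckling replicate 4.

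CYP2C33 was close to background. Its level was -6.84, -5.51, -4.68 and -3.64 in suckling and -4.55, -5.55, -4.04 and -7.26 in weaned replicates 1 to 4, and it was well above background on 2 arrays of each group. The difference was -0.18 (SE 0.81, 95% interval -2.01 to 1.64, limma adjusted p = 0.945). Of its 5 other probes, 4 were not well above background on any array and 1 on a single array, and the sign turned with the mean over all 6 probes, to 0.07.

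CYP2E1, which oxidises ethanol and other small molecules, was not well above background on any array with any of its 3 probes, and was not tested. The brightest of them lay between -7.81 and -6.28 in suckling and between -7.61 and -5.77 in weaned piglets.

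CYP4A24, a fatty acid hydroxylase, was the steadiest of the tested genes. Its level was -0.18, -0.64, -0.52 and -0.31 in suckling and 0.29, 0.16, 0.09 and -0.03 in weaned replicates 1 to 4. The lowest weaned value was above the highest suckling value. The difference was 0.54 (SE 0.16, 95% interval 0.19 to 0.89), or 1.45-fold, with a limma adjusted p of 0.241, so it did not pass over all probes. Over all tested probes the share without overlap was 7.76%, made up of 4.93% higher and 2.83% lower in the weaned group. CYP4A24 was the only such gene of the 8 tested beside CYP1A1, which had entered the test through its high group. The second CYP4A24 probe, above background on 2 suckling arrays, gave 0.47 with overlapping groups (limma adjusted p = 0.648).

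**Figure D3:**
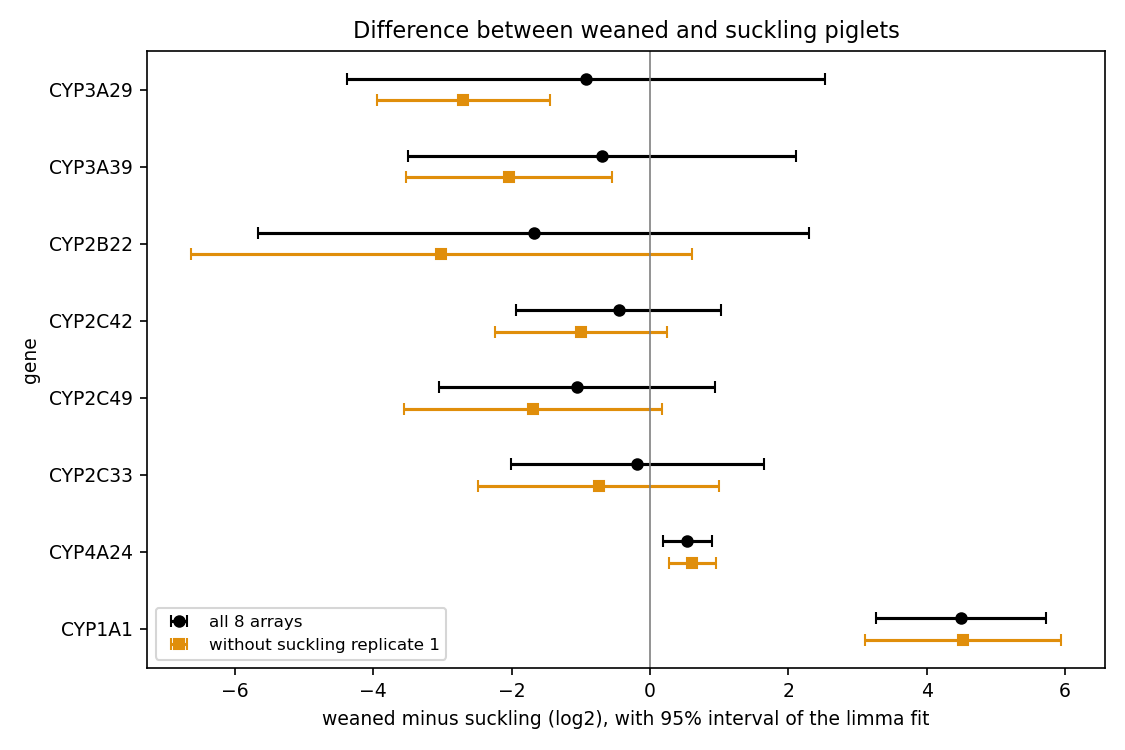
Difference between weaned and suckling piglets for the 8 tested genes (log2, points) with its 95% interval from the limma fit (bars, not adjusted for the number of probes), for all 8 arrays in black and without suckling replicate 1 in orange. CYP1A1 lies at 4.49 in the fit of all arrays, and the differences of the CYP2 and CYP3A genes shift downward without that array.

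Of the 8 tested genes, 2 lay higher on average in the weaned group and 6 lower, and the median difference was -0.57 against 0.04 over all tested probes. Without suckling replicate 1 the counts were again 2 and 6, with a median of -1.34 against 0.05. CYP1A1 was the 1 gene that passed in this fit (limma adjusted p = 0.0280). It had entered through the same weaned arrays alone, so its passing is a description. Of all tested probes 1.76% passed, 1.19% as higher and 0.569% as lower in the weaned group. CYP3A29 and CYP3A39 were then the 2 genes with all weaned arrays below all remaining suckling arrays, and 8.30% of all tested probes had that order. This fit was singled out after the values of suckling replicate 1 were known.

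The low values of suckling replicate 1 ran through most of these genes. In 6 of the 8 tested genes it was the lowest of the suckling arrays, whereas 30.4% of all tested probes had their lowest suckling value there. For CYP2C49 the low value of suckling replicate 1 holds for the brightest probe only, and CYP2C33 was near background. Weaned replicate 3 was the highest weaned array in 5 of 8, against 26.5% of all tested probes. The exceptions to the first pattern were CYP1A1 and CYP4A24, for which suckling replicate 1 lay within or at the top of its group.

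The enterocyte markers moved with this pattern. All 7 tested markers were lowest in suckling replicate 1 within the suckling group. This was not particular to enterocytes. It held for 3 of 3 fibroblast, 3 of 3 smooth muscle, 6 of 7 enteroendocrine and 3 of 5 endothelial markers. It held for 0 of 4 crypt, 0 of 2 goblet, 1 of 5 macrophage and neutrophil, and 2 of 8 lymphocyte markers. Among hepatocyte and acinar markers it held for 2 of 6 and 1 of 3, against 30.4% of all tested probes. The median deviation of the enterocyte markers from the mean over all arrays was -1.25 in suckling replicate 1. It was 0.24 to 0.98 in the other suckling arrays and -0.63 to 0.27 in the weaned arrays. SLC5A1, the sodium-glucose transporter of the brush border, was 6.61 ± 2.05 in the suckling group and 6.10 ± 0.71 in the weaned group. The 4 tested markers of dividing crypt cells had a median deviation of 0.56 in suckling replicate 1, -0.99 to -0.09 in the other suckling arrays and -0.08 to 0.54 in the weaned arrays. In a piece of gut wall fewer enterocytes and less RNA per enterocyte cannot be told apart, and the part of the cell mixture in these P450 levels was not tested.

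Markers of other cell types were read on the same arrays. The 6 tested hepatocyte markers, some of which the gut also makes, had a median deviation of -0.69 to 0.00 in suckling and -0.66 to 0.66 in weaned arrays, with weaned replicate 3 highest. The 3 tested smooth muscle markers ranged from -0.34 to 0.79 and from -1.35 to 0.60, and the 5 macrophage and neutrophil markers from -0.55 to -0.03 and from -0.52 to 1.18. Ranges of the 8 lymphocyte markers were -0.36 to 0.06 and -0.26 to 0.46. Over all 11 lists of cell type markers 53 entries were tested and none passed by limma, while 10 had an unadjusted p under 0.05, against 12.3% of all tested probes. Among the 10 were 4 of 5 endothelial markers, all 5 of which had a lower mean in the weaned group, and 2 of 5 macrophage and neutrophil markers. Their part in the P450 levels was not tested.

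**Figure D4:**
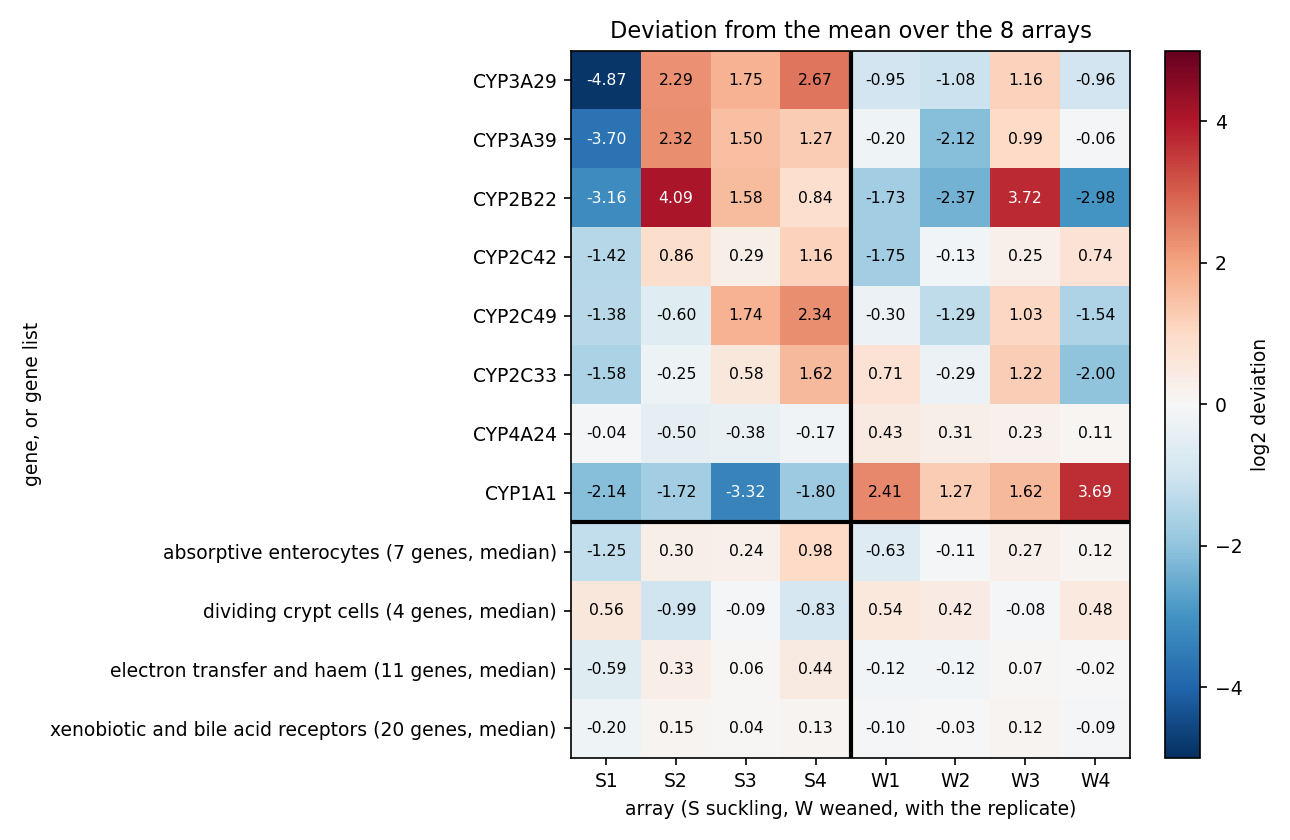
Deviation of each tested P450 gene from its own mean over the 8 arrays (log2, upper block), and median deviation of 4 gene lists (lower block), with suckling arrays (S) left and weaned arrays (W) right of the line. CYP3A29, CYP3A39 and CYP2B22 are lowest in suckling replicate 1, where the enterocyte markers are at -1.25, while CYP1A1 follows the groups.

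Other P450 genes were not called. Of 16 with a probe, 10 were tested, none passed by limma and none had an unadjusted p under 0.05; the mean was higher in the weaned group for 5 and lower for 5, and the median difference was 0.01. Of these 10 genes 3 were lowest of the suckling arrays in replicate 1, which is 30% and close to the 30.4% of all tested probes. Among those 3 was CYP2D25, a vitamin D 25-hydroxylase of the pig, which was 2.81 in suckling replicate 1 and 6.03, 5.12 and 6.16 in the other suckling arrays, and 3.29, 3.64, 4.60 and 4.70 in the weaned arrays. Its difference was -0.97 (SE 0.70, limma adjusted p = 0.608), and -1.71 without suckling replicate 1 (limma adjusted p = 0.0713). CYP27A1, a sterol hydroxylase of bile acid synthesis, was likewise lowest in suckling replicate 1 among the suckling arrays, at -2.97 against -1.40 to 1.26.

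Of the remaining P450 genes, CYP2A19, a coumarin hydroxylase, had a difference of 0.42 (limma adjusted p = 0.473). CYP19A1, an oestrogen-forming aromatase, had 0.35 and CYP21A2, a steroid 21-hydroxylase, 0.55 (limma adjusted p = 0.479 and 0.519). CYP11A1, which starts steroid synthesis, had 0.10.

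The partners that feed P450 enzymes with electrons and haem were not called either. Of 22 such genes 11 had a named probe, all were tested and none passed by limma. An unadjusted p under 0.05 was found for 1, where 12.3% of all tested probes had one. The mean was higher for 5 and lower for 6, with a median difference of -0.15 against 0.04 over all tested probes. PGRMC2, a haem-binding membrane protein, had a difference of -0.81 (SE 0.39) and HMOX1, which degrades haem, of -0.53 (SE 0.30) (limma adjusted p = 0.443 and 0.518). CYB5A, a second electron donor, had -0.48 (SE 0.42). Among the 5 with a higher mean, UROS had 0.17 (SE 0.20, limma adjusted p = 0.760). POR is named here after its values were seen because every microsomal P450 depends on it. It was 1.82 in suckling replicate 1, 3.26 to 3.91 in the other suckling arrays and 2.60 to 3.35 in the weaned arrays. The POR difference was -0.20 (SE 0.41, limma adjusted p = 0.875). Of the 11 tested genes of this list, 6 were lowest of the suckling arrays in replicate 1, against 30.4% of all tested probes.

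Of 20 genes of the aryl hydrocarbon receptor pathway, 5 had a named probe, and neither the receptor AHR nor its partner ARNT was among them. None of the 5 passed by limma, and none had an unadjusted p under 0.05. On average 4 lay higher in the weaned group, as did 54.9% of all tested probes. The median difference of the 5 was 0.25, against 0.04 over all tested probes. GSTA1, a glutathione transferase, was 2.58, 0.51, 3.96 and 4.00 in suckling and 2.35, 4.18, 4.89 and 5.16 in weaned replicates 1 to 4 (difference 1.38, SE 0.85, limma adjusted p = 0.551). PTGES3, a co-chaperone of the receptor complex, had a difference of 0.59 (SE 0.27, limma adjusted p = 0.420). NQO1, a quinone reductase and target of the receptor, had 0.25 (SE 0.37, limma adjusted p = 0.822). The groups overlapped for NQO1, at 0.45 ± 0.52 and 0.69 ± 0.68. HSP90AA1 had a difference of -0.20 (SE 0.56) and HSP90AB1 of 0.04 (SE 0.18).

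Among 27 xenobiotic and bile acid receptors, co-regulators and further detoxification genes, 20 had a named probe and were tested. None passed by limma; 4 had an unadjusted p under 0.05, where 12.3% of all tested probes did, and 9 had a higher and 11 a lower mean, with a median of -0.04. PPARG, a fatty acid receptor, was 1.29, 0.09, 1.54 and 1.58 in suckling and 2.46, 2.44, 2.14 and 2.64 in weaned replicates 1 to 4. Its groups did not overlap (difference 1.30, SE 0.32, limma adjusted p = 0.194). Of all tested probes 4.93% had this order, with all weaned above all suckling arrays. SULT2A1, which sulfates bile acids and steroids, was -2.99 ± 1.09 in suckling and -1.19 ± 1.47 in weaned piglets (limma adjusted p = 0.383). GSTA4, a glutathione transferase, had a difference of 0.49 and NCOA1, a receptor coactivator, of -0.74 (limma adjusted p = 0.379 and 0.293).

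Both receptors of the CYP2B, CYP2C and CYP3A families were measured, and are named here after their values were seen. NR1I3 was 2.22, 4.95, 4.46 and 4.21 in suckling and 2.54, 2.81, 4.47 and 2.80 in weaned replicates 1 to 4, so suckling replicate 1 was the lowest array and weaned replicate 3 the highest of its group. Its difference was -0.80 (SE 0.62, limma adjusted p = 0.635). This order of arrays was not particular to NR1I3. Of the 20 tested genes of its list, 13 were lowest of the suckling arrays in replicate 1, against 30.4% of all tested probes. In 8 of the 20 weaned replicate 3 was the highest weaned array, against 26.5%. NR1I2 varied less, at 3.76 ± 0.20 in suckling and 3.46 ± 0.37 in weaned piglets (difference -0.31, SE 0.21, limma adjusted p = 0.591). PPARA, named on the same ground, had a difference of -0.05 (SE 0.20, limma adjusted p = 0.939).

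Genes with the most similar course over the 8 arrays were sought among 2774 other tested genes with a symbol, by the root mean square difference between profiles centred on their mean, as a description. For CYP1A1 the suckling values are at background, so its profile, and the distances and order given here, are only rough. The nearest were SLC10A2, a bile acid transporter (1.46), and NOS2, the inducible nitric oxide synthase (1.49). DUOXA2, a maturation factor of a dual oxidase, followed at 1.63, then AREG, a growth factor, at 1.66 and GPX2, a glutathione peroxidase, at 1.66. None of these 5 genes passed the test between the groups themselves (limma adjusted p from 0.139 to 0.377).

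For CYP3A29, with an SD of 2.49, the nearest were SLC5A4, a member of the sodium-glucose transporter family (0.72), UBD, a ubiquitin-like protein (0.77), G6PC, which releases free glucose (0.81), APOA1, an apolipoprotein (0.85), and CYP3A39 (0.86). CYP3A39 had UBD, APOA1, SLC5A4, CYP3A29 and DGAT2, an enzyme of triglyceride synthesis, as its nearest, at 0.68 to 0.93. All of these genes were lowest in suckling replicate 1 among the suckling arrays. CYP2C42, with an SD of 1.06, lay nearest to TLR10 (0.22), C13H21orf62 (0.30), APOA4, another apolipoprotein (0.40), RAB33A (0.42) and EPHX1, an epoxide hydrolase (0.45).

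CYP2C49 lay nearest to UNC5B (0.65), then to CYP2C33 (0.73) and CYBRD1, an iron reductase (0.75), with ST6GALNAC5 and GLRX next. CYP2C33, near background on several arrays, lay nearest to SLC46A1, a folate and haem transporter (0.60), followed by UNC5B, SLA-3, PNPLA2 and SLA-5 at up to 0.71. CYP2B22 lay nearest to BCO1, which splits carotene into retinal (1.10), with MMP20, VNN1, SLC22A13 and FOLH1B at 1.25 to 1.38.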

How the data were processed

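Arrays of 1 colour were read with Agilent Feature Extraction 10.7, per the file headers. The deposited intensity values are background-subtracted by that software, and its flags mark outlier spots and spots well above background. The deposited log2 table ranked probes as the scanner files did; its columns had a common median of 5.50, and its centring is unknown. No spot was saturated.

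Control spots were left out, outlier spots set to missing and spots of a probe averaged, leaving 43603 probes. Probes were named through RefSeq accessions in the gene table of Sscrofa11.1, which named 6924. Probes well above background on at least 4 arrays, with at least 3 values per group, were tested with limma 3.58.1 (lmFit and eBayes, R 4.3.3, two-sided) and Benjamini-Hochberg adjustment over all 30554. The fits were tested on simulated data with independent noise for each probe and array. Deviations shared by the probes of an array were not simulated. The number of arrays limits the precision.

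All 10 genes are named, with every called gene and up to 6 by p from the other lists. Members and lists were chosen with earlier results of these data known. The alternatives were other scalings, background corrections, filters, variance models, a replicate block, the deposited table, other probes and each array left out. 1 gene of the other lists is not reported here.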

Additional observations from a re-analysis of the deposited data

Results flagged for a closer look

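In 48 groups of 4 values, from the 10 genes and the gene lists, the gap of the lowest or highest sample to its neighbour was divided by the range of the group. It was above Dixon's 95% critical value for 4 values in 2 groups, and chance marks about 1 in 20 groups of independent values. Both were CYP3A29. Suckling replicate 1 lay far below the other suckling arrays (0.879), at -0.67 against 5.95 to 6.87. Weaned replicate 3 lay far above the other weaned arrays (0.942), at 5.36 against 3.12 to 3.25.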

How the results depend on the processing

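CYP1A1 stayed higher in weaned piglets in all 22 alternatives, but for many of them the direction was fixed in advance. The filters, the robust variance model, the replicate block and the permutation test left its difference at 4.49. As the groups did not overlap, leaving out 1 array could not turn its sign. The limma adjusted p of CYP1A1 was under 0.05 in 14 of the 21 alternatives that give one. Except where no filter was used, both its probes entered these tests through the weaned arrays alone. The count is therefore a description and no support for the call. The exact permutation test gave 0.0286, unadjusted and the smallest p that 4 arrays against 4 allow. The replicate number as a block, which no label ties to litters (correlations of same-numbered deviations 0.37, 0.01, 0.19 and -0.02), gave 4.49 with a limma adjusted p of 0.0544; with it 0 genes described here and 0 of 30554 probes passed by limma, while 4195 probes had an unadjusted p under 0.05. Normexp correction gave 0.97 for CYP1A1, 0 genes passed and 0 probes, with 269 at an unadjusted p under 0.05; with aberrant backgrounds replaced, a choice made after seeing the data, CYP1A1 was 1.41, 0 genes described here passed, and 55 probes. Array weights gave 328 probes. With each array left out CYP1A1 ranged from 4.01 to 4.82, the genes passing from 0 to 1 and the probes passing from 15 to 539. Of the probes, 539 passed without suckling replicate 1, 20 and 25 without suckling replicates 2 and 3, and 15, 18, 25 and 26 without weaned replicates 1 to 4. The median difference of the tested genes ranged from -1.34 to -0.16. CYP2C33 ranged from -0.74 to 0.45 and was 0.0701 with the mean over its probes, and CYP2C42 ranged from -0.998 to 0.0577, so neither has a settled direction. The cause of these shifts was not tested. Background limits CYP1A1 in suckling piglets, and CYP1A2, CYP2C33 and CYP2E1 in both groups.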
